A study of Mus musculus with 20 samples.

Results

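The 8 genes described here encode feedback inhibitors of signalling through the extracellular signal-regulated kinase (ERK): Dusp4, Dusp5, Dusp6, Spry1, Spry2, Spry4, Spred1 and Spred2. They were picked by symbol from a deposited table of 26722 genes, not by a cut on their values. Earlier results of these data were known when they were chosen. All 8 were found, each on 1 row, and all 8 were among the 14605 genes that passed the filter on low counts. Their RNA was measured in 20 total RNA-seq libraries of C2C12 myotubes, 4 biological replicates of each of 5 treatments. C2C12 is an established line of mouse myoblasts that fuse into multinucleated myotubes, so every library comes from 1 line, here after 5 days in medium with horse serum. Every library also received 7.7 nM of an antibody for 16 h. The control group received b12, a negative control antibody of the human IgG4 class. A second group received bivalent 13-3B5, an activating antibody against the muscle-specific kinase MuSK. The agrin group received 0.1 nM neural agrin with b12. The last 2 groups received the same dose of agrin with 13-3B5xb12 or with 11-3F6xb12, monovalent antibodies against MuSK that the labels call inhibiting. The labels do not say whether replicates with the same number came from the same culture or day, so p-values measure the spread between these libraries, which may be partly technical.

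Receptor tyrosine kinases signal through Ras, Raf and MEK to ERK, and ERK induces genes whose products shut the same route down. Dual-specificity phosphatases of the Dusp family remove the activating phosphates from ERK, with Dusp6 acting mainly in the cytoplasm and Dusp4 and Dusp5 in the nucleus. Sprouty proteins (Spry) restrain signalling between the receptor and Raf, and Spred proteins bring the Ras inactivator neurofibromin to the membrane. MuSK, the receptor through which nerve-derived agrin assembles the neuromuscular synapse, is itself a receptor tyrosine kinase. In bulk RNA a lower level can mean fewer cells that carry a transcript or less of it in each cell, and these cannot be told apart here.

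Promoter sequences of 4 of the genes are shown because replicate numbers were compared for their RNA, as described further on: Spry1, Spry2 and Dusp5 had lower mean levels in replicates 3 and 4 of every treatment, and Dusp6 did not. RefSeq gave a promoter for 6 of the 8 genes, on the GRCm38.p6 build. Dusp4 and Spry4 had no entry. The stretches end before the first transcribed base in either annotation and run 5′ to 3′ on the gene's own strand. Capitals mark matches to the motifs named after them. Spry1 lies at chr3:37639697-37639946 on the + strand, Spry2 at chr14:105896820-105897069 on the − strand, Dusp5 at chr19:53528895-53529108 on the + strand and Dusp6 at chr10:99262981-99263230 on the + strand.
Spry1: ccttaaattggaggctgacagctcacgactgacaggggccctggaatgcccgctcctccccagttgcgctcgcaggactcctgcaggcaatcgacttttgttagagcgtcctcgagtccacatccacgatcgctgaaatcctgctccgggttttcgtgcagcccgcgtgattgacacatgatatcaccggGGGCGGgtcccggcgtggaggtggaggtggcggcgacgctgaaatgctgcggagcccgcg
Spry2: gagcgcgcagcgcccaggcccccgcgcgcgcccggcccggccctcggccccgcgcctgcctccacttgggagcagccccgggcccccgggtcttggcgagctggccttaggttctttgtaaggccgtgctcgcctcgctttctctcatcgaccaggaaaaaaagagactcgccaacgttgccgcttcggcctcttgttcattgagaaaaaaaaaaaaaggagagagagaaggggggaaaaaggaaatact
Dusp5: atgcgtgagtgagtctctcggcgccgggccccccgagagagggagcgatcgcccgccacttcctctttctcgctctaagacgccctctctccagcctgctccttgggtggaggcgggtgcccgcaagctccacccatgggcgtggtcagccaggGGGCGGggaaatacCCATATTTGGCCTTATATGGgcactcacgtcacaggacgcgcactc
Dusp6: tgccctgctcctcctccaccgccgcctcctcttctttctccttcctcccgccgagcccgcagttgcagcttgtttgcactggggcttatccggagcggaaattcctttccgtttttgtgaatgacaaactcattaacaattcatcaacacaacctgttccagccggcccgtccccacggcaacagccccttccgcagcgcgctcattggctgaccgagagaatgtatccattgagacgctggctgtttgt

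Both strands of the 250 bases before the RefSeq start were searched for 7 motifs. They were the cyclic AMP response element (TGACGTCA), the AP-1 site (TGANTCA), the ETS core (CCGGAA), the E-box of myogenic factors (CAGCTG), the GC box (GGGCGG), the TATA box (TATAAA), and the CArG box that serum response factor binds, none of them overlapping another in the stretches shown. The Spry1 stretch held 1 GC box, 60 bases before the start. The Dusp5 stretch held 1 GC box and 2 adjoining CArG boxes, the first of these at 82 bases before the RefSeq start. Only 214 of the 250 Dusp5 bases are printed, because its GENCODE start lies upstream of the RefSeq start. Its boxes therefore lie nearer to the end of the printed stretch than to the RefSeq start. No letters of any of the 7 motifs were found in the Spry2 or Dusp6 windows. Of the windows not shown, Spred1 held 2 GC boxes and Spred2 held 1, with no match to the other motifs. Spry1, with a GC box, and Spry2, without one, were called between the replicate sets. Dusp5, Spred1 and Spred2, with GC boxes, and Dusp6, without one, were not. Dusp4, also called, had no promoter entry, and a link between these motifs and RNA levels was not tested. Of 32536 mouse promoters searched in the same way, 33.0% held the GC box and 1.48% a CArG box, against 1.56% for the cyclic AMP response element, 6.73% for the AP-1 site, 12.1% for the ETS core, 13.1% for the E-box and 12.3% for the TATA box. GC content of the windows was 64.0% for Dusp5, 62.4% for Spry1, 62.4% for Spry2, 56.4% for Dusp6, 70.8% for Spred1 and 56.0% for Spred2, with a median of 52.4% and an upper quartile of 61.2% over all promoters. They held 12 to 31 CpG dinucleotides each, against a median of 6 and an upper quartile of 16. Dusp6 and Spred2 were above the median but not above the upper quartile on either measure.

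Total counts per library ran from 18424881 to 23343903. Levels are given as CPM, counts scaled to a common library total with TMM factors. The first principal component of the libraries, with 21.0% of the variance, separated replicates 1 and 2 from replicates 3 and 4 of all 5 treatments. On the second, with 14.4%, replicate 2 of the control and replicate 1 of agrin with 13-3B5xb12 stood apart. Without these 2 libraries, no gene of the 8 was called in a treatment comparison, as with them, and the same number, 3, was called between replicates 1 and 2 and replicates 3 and 4. Of the myotube markers, 10 of 10 were detected in every library, with summed levels of 10466 to 14713 CPM. Liver markers were at or near 0 in all libraries except agrin replicate 3, where their sum reached 11.6 CPM, and leukocyte and endothelial markers summed to at most 1.86 and 1.23 CPM.

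All 8 genes were transcribed in these myotubes, at levels that fell into 3 tiers once divided by exon length. The upper tier held Dusp6 at 11.9 ± 1.31 CPM per kb (mean ± SD, n = 20), Spry1 at 11.3 ± 2.01, Dusp4 at 9.81 ± 1.45, Spred1 at 9.66 ± 0.727 and Spry2 at 7.42 ± 1.54. Neighbours in this tier overlapped over the libraries. Dusp6 was above Spry1 in 11 of 20 libraries and Dusp4 above Spred1 in 9 of 20, while Spred1 exceeded Spry2 in 18 of 20. Mean Spry2 was 3.12 times mean Spred2, and Spry2 was the higher in 20 of 20 libraries. Spred2 was at 2.38 ± 0.311 CPM per kb and Dusp5 at 2.24 ± 0.546, which overlapped each other. Spry4 was lowest at 0.383 ± 0.136 CPM per kb, 5.84 times below Dusp5, with ranges that did not overlap.

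**Figure D1:**
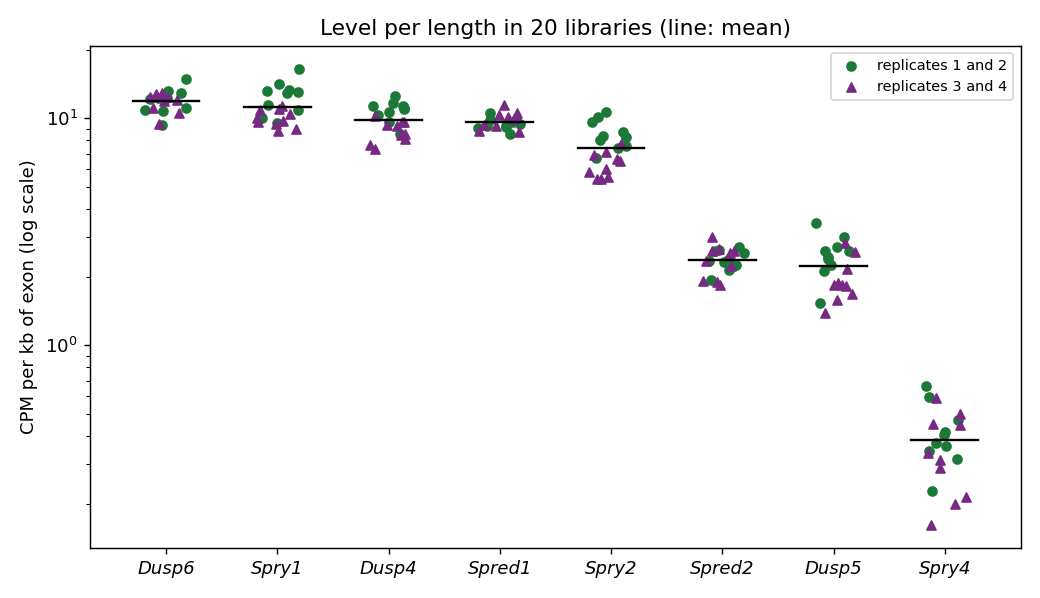
Level of each of the 8 genes in CPM per kb of exon on a log axis, 1 point per library, circles for replicates 1 and 2, triangles for replicates 3 and 4, and a line at the mean of 20 libraries. Dusp6, Spry1, Dusp4, Spred1 and Spry2 lie above Spred2 and Dusp5, and Spry4 lies lowest at a mean of 0.383.

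The counts behind these levels differed widely. Spred1 had 1217 to 1707 counts per library and Dusp6 621 to 1018, whereas Dusp5 had 67 to 187 and Spry4 only 18 to 66. The coefficient of variation of the counts over the libraries was 36.9% for Spry4, 24.3% for Dusp5, 18.4% for Spry2, 17.9% for Spry1, 13.5% for Spred2, 12.6% for Dusp6, 12.4% for Dusp4 and 10.9% for Spred1. On GRCm38 with the GENCODE M21 annotation, Dusp4 spans chr8:34807297-34819894, Dusp5 chr19:53529109-53542431, Dusp6 chr10:99263231-99267489, Spry1 chr3:37639947-37644598, Spry2 chr14:105891947-105896819, Spry4 chr18:38586247-38601415, Spred1 chr2:117121374-117182279 and Spred2 chr11:19924375-20024026. The Sprouty genes have 2 merged exons each, while Spred1 and Spred2 have 7 and 8 merged exons. Exons of Dusp5 share 547 bases with the antisense gene AC137853.2, and those of Spry1 share 710 with Gm42922 on the other strand. The use of strand in counting is not given in the sources used here, so reads over these stretches cannot be assigned with certainty. The 2 neighbours had 86 and 53 counts over all libraries, against 2420 for Dusp5 and 14315 for Spry1.

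The design asks whether the RNA of these inhibitors differs between treatments aimed at MuSK, first with agrin. The activity of MuSK itself is not measured by these libraries. Between the agrin and control groups no gene of the 8 was called at an adjusted p under 0.05 (edgeR quasi-likelihood test, Benjamini-Hochberg adjustment over all genes), and neither was any other gene (0% of 14605). At an unadjusted p under 0.05, 2.85% of all genes and 0 of the 8 passed. Dusp6, the member with the smallest p, was at 38.4, 33.9, 37.8 and 37.4 CPM in control replicates 1 to 4. In agrin replicates 1 to 4 it was at 38.2, 29.2, 29.6 and 40.3 CPM. Replicates 2 and 3 with agrin lay below every control library and replicate 4 above them, so the groups overlapped. The log2 fold change was −0.10 (SE 0.11, 95% interval −0.33 to 0.12, unadjusted p = 0.351), with −0.10 in replicates 1 and 2 and −0.11 in replicates 3 and 4. It lay between −0.19 without agrin replicate 4 and −0.04 without agrin replicate 2, was −0.04 without agrin replicate 3 and was −0.16 without agrin replicate 1. Over the 8 genes the log2 fold change ran from −0.12 to 0.03 with a median of −0.07, beside 0.00 over all genes tested. All 8 intervals excluded a 2-fold change and 6 excluded a 1.5-fold change.

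The activating antibody bivalent 13-3B5, compared with control, gave no called member either, and 0% of all genes were called. Unadjusted, 0 of the 8 and 2.77% of all genes passed. The largest log2 fold change was that of Spry4, −0.30 with a 95% interval of −1.10 to 0.49, on levels of 1.84 ± 1.05 CPM in the control and 1.49 ± 0.512 CPM with 13-3B5 (SD, n = 4). Spred2 had the smallest p, at a log2 fold change of −0.20 (SE 0.14, unadjusted p = 0.156). Its estimate was 0.06 in replicates 1 and 2 and −0.48 in replicates 3 and 4, a difference of −0.54 (SE 0.28, adjusted p = 0.947 in the edgeR test of that difference), and without control replicate 3 the estimate over all replicates was −0.12. Intervals of 7 of the 8 genes lay within 1.5-fold, the exception being Spry4. Set directly against agrin, bivalent 13-3B5 again gave 0 called members and 0% of all genes. Spred2 came first there too, at −0.24 (SE 0.14, unadjusted p = 0.102), with 2.39% of all genes under the unadjusted threshold and 0 of the 8.

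The 2 monovalent antibodies, which the labels call inhibiting, were compared with agrin alone. With 13-3B5xb12, 0 of the 8 and 0% of all genes were called, and unadjusted 0 of the 8 and 3.83% of all genes passed. Dusp6 was at 46.5, 41.5, 33.1 and 34.8 CPM in replicates 1 to 4. Its first 2 replicates lay above every agrin library and its last 2 lay within the agrin range. The log2 fold change of Dusp6 was 0.18 (SE 0.11, 95% interval −0.04 to 0.41, unadjusted p = 0.108), made of 0.39 in replicates 1 and 2 and −0.04 in replicates 3 and 4. It was 0.09 without replicate 1 of 13-3B5xb12, 0.11 without agrin replicate 2 and 0.12 without agrin replicate 3. The Spry2 estimates were 0.43 and −0.22, and neither difference between the 2 sets of replicates passed adjustment (adjusted p = 0.596 and 0.575, edgeR).

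Spred2 was the member with the lowest unadjusted p of any treatment comparison, in agrin with 11-3F6xb12. It was at 10.5, 8.95, 10.4 and 8.53 CPM in the 4 replicates of that group, and at 12.5, 10.9, 12.1 and 12.2 CPM in those of agrin alone. Every library with 11-3F6xb12 lay below every agrin library, although by less than 1 CPM at the nearest pair. Over all genes, 2.90% had groups that did not overlap in this comparison, and among the 8 inhibitors Spred2 was the 1 such gene. The log2 fold change was −0.32 (SE 0.14, 95% interval −0.60 to −0.03, unadjusted p = 0.0317), and it was −0.27 in replicates 1 and 2 and −0.36 in replicates 3 and 4. After adjustment over all genes p was 1.00 by edgeR, and 0% of all genes were called, while 3.33% passed unadjusted. Leaving out 1 library at a time kept the log2 fold change between −0.36 and −0.26. A fit with the replicate number as a block called 2 genes in this comparison, neither of them among the 8.

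Spred2 also had the smallest p when 11-3F6xb12 was set against the other monovalent antibody and against control, on shared libraries. In agrin with 13-3B5xb12 it was at 11.0, 11.8, 12.1 and 11.7 CPM, again above all 4 libraries with 11-3F6xb12. Between the 2 monovalent antibodies its log2 fold change was −0.28 (SE 0.14, 95% interval −0.57 to 0.01, unadjusted p = 0.0539, adjusted p = 0.992 by edgeR), and 2.72% of all genes had groups that did not overlap. Here 0 of the 8 and 4.22% of all genes passed unadjusted, and 0% were called. The control libraries, at 9.97, 11.99, 13.9 and 10.9 CPM, overlapped those with 11-3F6xb12, and the log2 fold change was −0.28 (SE 0.14, unadjusted p = 0.0525), with 0 of the 8 and 3.25% of all genes under the unadjusted threshold and 0% called. For agrin with 13-3B5xb12 against control, Spry2 had the smallest p at a log2 fold change of 0.16 (SE 0.20, unadjusted p = 0.420), with 0 of the 8 and 2.39% of all genes unadjusted and 0% called. That value was 0.04, 0.01, 0.30 and 0.29 without replicates 1 to 4 of 13-3B5xb12, 0.33 without control replicate 2 and 0.05 without control replicate 4. These contrasts reuse the agrin, control or 11-3F6xb12 libraries and do not count as separate evidence.

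**Figure D2:**
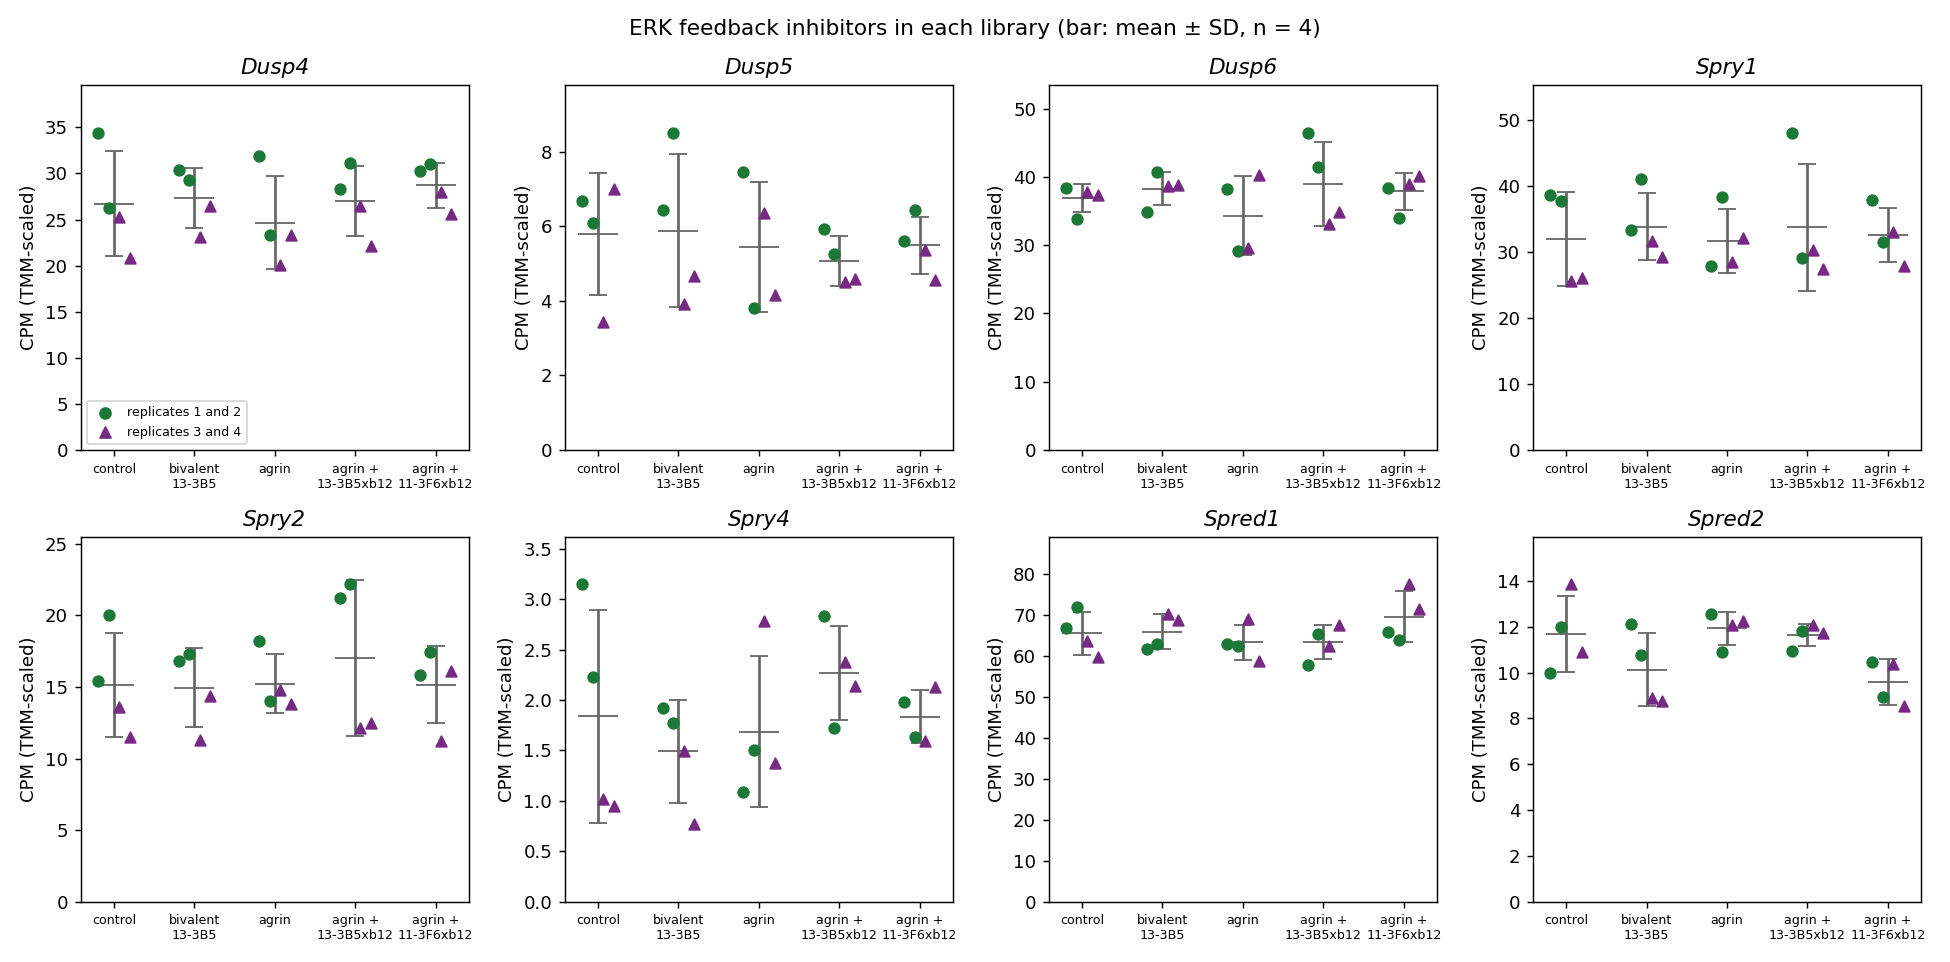
CPM of each gene in each library by treatment, with circles for replicates 1 and 2, triangles for replicates 3 and 4, and bars at mean ± SD of 4 libraries. The 4 Spred2 values with agrin and 11-3F6xb12 (8.53 to 10.5 CPM) lie below the agrin libraries and the 13-3B5xb12 libraries.

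Across the 8 comparisons and 8 genes, 64 tests in all, log2 fold changes ran from −0.32 to 0.42, with 1 under an unadjusted p of 0.05 and a lowest adjusted p of 0.992 (edgeR). Of the 64 intervals, 60 excluded a 2-fold change in either direction and 49 excluded a 1.5-fold change. The other 4 all belonged to Spry4, the gene with the fewest counts. A test for a difference among any of the 5 treatments gave unadjusted p-values from 0.114 for Spred2 to 0.972 for Spry1, with 0 of the 8 and 0% of all genes called and 2.25% of all genes under the unadjusted threshold. DESeq2 also called 0 of the 8 in each of the 8 comparisons. It called 0 genes in 7 of them and 2 genes between the 2 monovalent antibodies.

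**Figure D3:**
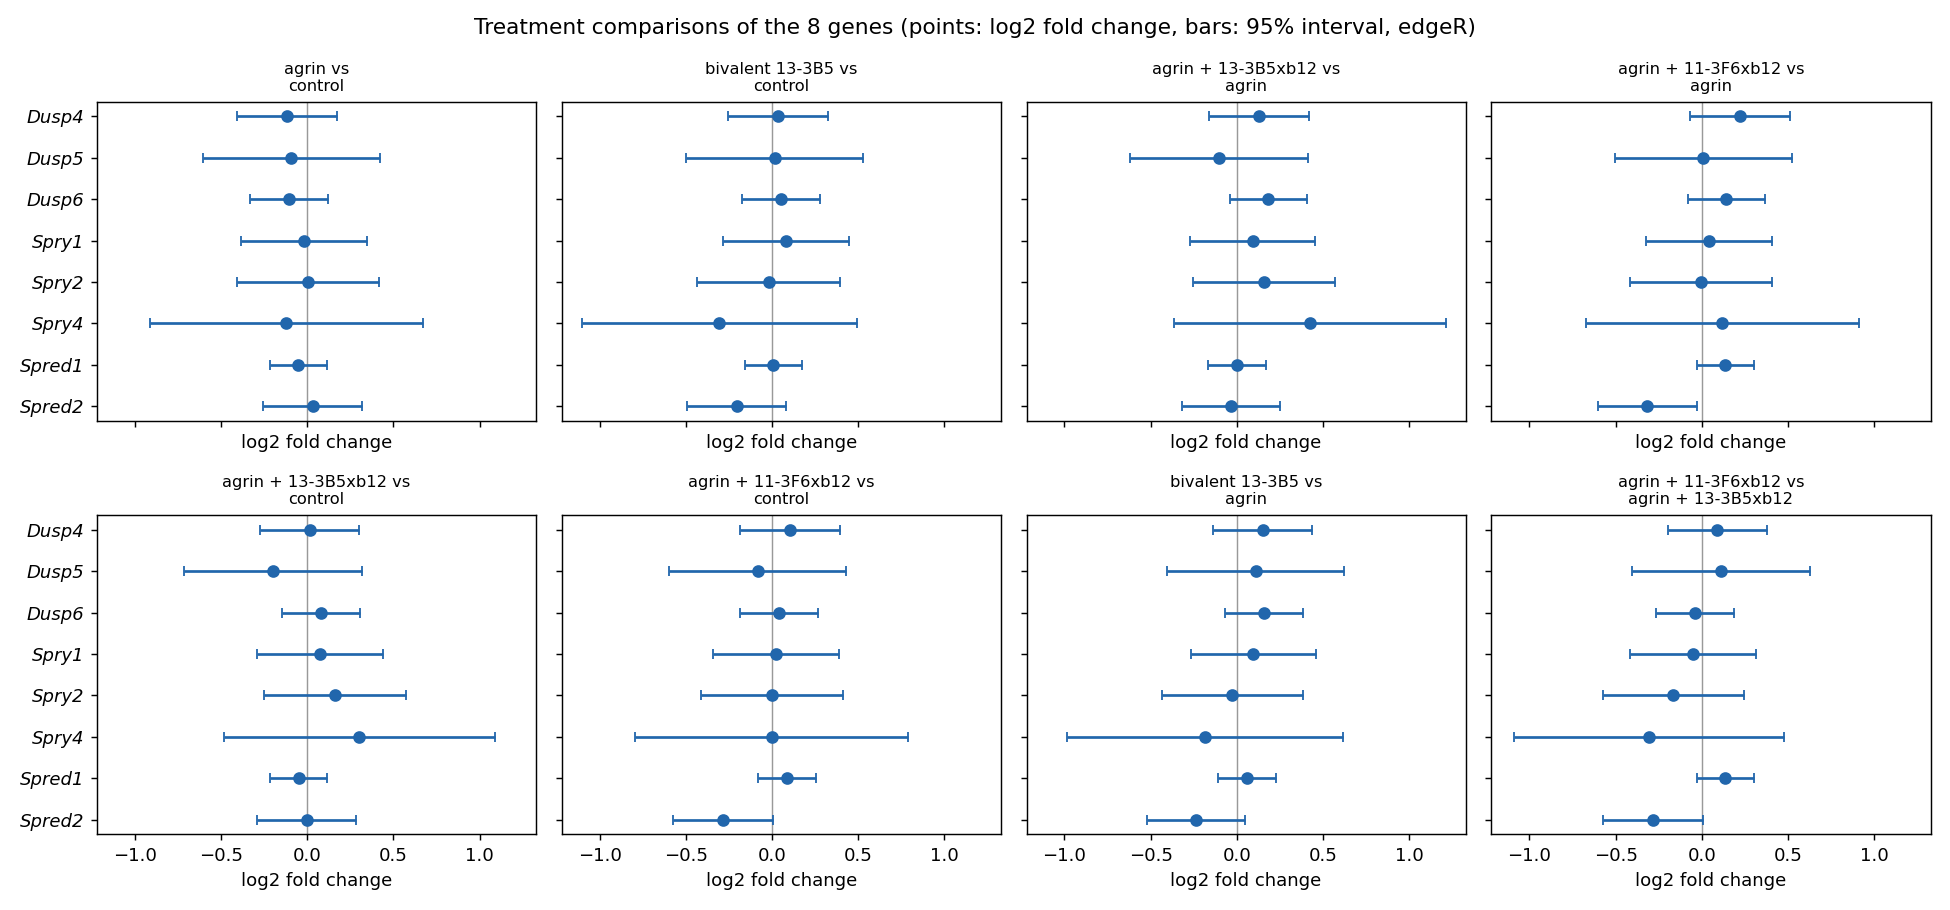
Log2 fold change of each gene (points) with its 95% interval (bars) in the 8 treatment comparisons, from one edgeR model of all libraries. Spred2 with agrin and 11-3F6xb12 against agrin is the only interval that leaves out 0, and the widest intervals are those of Spry4.

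Several of these genes differed between replicate numbers. Replicates 3 and 4 were compared with replicates 1 and 2 in a model that also holds treatment, 10 libraries against 10. This split was seen in these libraries and is not a group of the study, and the labels do not say what the numbers share. Of all genes, 13.1% were called, 5.93% higher and 7.13% lower in replicates 3 and 4. At an unadjusted p under 0.05, 24.4% of all genes and 4 of the 8 passed. Of the 8 inhibitors, 3 were called and all 3 were lower: Spry2, Dusp4 and Spry1. None of the 8 had sets of libraries that did not overlap, beside 1.68% of all genes. The median log2 fold change over the 8 was −0.29, beside 0.01 over all genes.

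Spry2, a Sprouty that restrains signalling upstream of Raf, showed the largest difference among the called genes. In replicate 1 it was at 15.4 CPM in the control, 16.8 with 13-3B5, 18.2 with agrin, 21.2 when 13-3B5xb12 was added to agrin and 15.8 when 11-3F6xb12 was. In replicate 2 the values in that order were 20.02, 17.3, 14.0, 22.2 and 17.4 CPM. In replicate 3 they were 13.6, 11.3, 14.8, 12.1 and 11.2 CPM. In replicate 4 they were 11.5, 14.3, 13.8, 12.5 and 16.1 CPM. Of the 10 libraries of replicates 3 and 4, 7 lay below the lowest of replicates 1 and 2, and the mean was lower in 5 of 5 treatments. Means were 17.8 ± 2.61 and 13.1 ± 1.65 CPM (SD, n = 10), and the log2 fold change was −0.43 (SE 0.09, 95% interval −0.62 to −0.25, adjusted p = 0.000597, edgeR). It remained called without any 1 replicate number.

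Dusp4, a nuclear ERK phosphatase, was the most even of the 3 across treatments. In the control it was at 34.4, 26.3, 25.3 and 20.8 CPM in replicates 1 to 4, with 13-3B5 at 30.4, 29.2, 23.1 and 26.5, and with agrin at 31.9, 23.3, 20.1 and 23.3. Agrin plus 13-3B5xb12 gave 28.3, 31.1, 26.4 and 22.1 CPM, and agrin plus 11-3F6xb12 gave 30.2, 31.1, 28.0 and 25.6. Replicates 3 and 4 both lay below replicates 1 and 2 in 5 of 5 treatments, narrowly so with agrin. Over all treatments the 2 sets still overlapped, with 29.6 ± 3.09 against 24.1 ± 2.64 CPM. The log2 fold change was −0.30 (SE 0.07, adjusted p = 0.00210, edgeR). Without replicate 1 it was −0.22 and was no longer called (adjusted p = 0.0735).

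Spry1, the Sprouty gene with the highest level per length, was at 36.3 ± 6.06 CPM in replicates 1 and 2 and at 29.2 ± 2.55 CPM in replicates 3 and 4. The first set ranged from 27.9 to 48.1 CPM with a median of 37.7, the second from 25.6 to 33.0 with a median of 28.8. The value of 48.1 CPM was that of replicate 1 of agrin with 13-3B5xb12. Of the 10 libraries of replicates 1 and 2, 7 lay above the highest of replicates 3 and 4. The mean was lower in 5 of 5 treatments, but replicates 3 and 4 both lay below replicates 1 and 2 in only 2 of 5. The log2 fold change was −0.32 (SE 0.08, adjusted p = 0.00572, edgeR). The call was lost without replicate 3 (−0.35, adjusted p = 0.0577) and without replicate 4 (−0.29, adjusted p = 0.118).

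The other 5 inhibitors were not called. Dusp5, the second nuclear phosphatase, had lower means in replicates 3 and 4 of 5 of 5 treatments, 6.22 ± 1.26 against 4.86 ± 1.10 CPM, at a log2 fold change of −0.35 (SE 0.14, 95% interval −0.65 to −0.06, adjusted p = 0.109, edgeR). Spry4 was at −0.27 in log2 fold change (SE 0.25, adjusted p = 0.565), on 1.98 ± 0.615 and 1.66 ± 0.670 CPM, and its interval of −0.77 to 0.23 leaves a wide range of values. Dusp6, the cytoplasmic phosphatase, was at 37.6 ± 4.85 and 37.0 ± 3.45 CPM, with a log2 fold change at −0.02 (SE 0.07, 95% interval −0.16 to 0.12, adjusted p = 0.915). Spred1 was at 64.1 ± 3.72 and 66.9 ± 5.77 CPM, the log2 fold change being 0.06 (SE 0.05, adjusted p = 0.516). Spred2 was at 11.05 ± 1.10 and 10.9 ± 1.77 CPM, the log2 fold change being −0.02 (SE 0.09, adjusted p = 0.927). The intervals of Dusp6, Spred1 and Spred2 excluded a change of 1.5-fold, as did those of the called genes Dusp4 and Spry1. Differences between genes, such as Dusp4 against Dusp6, were not tested.

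**Figure D4:**
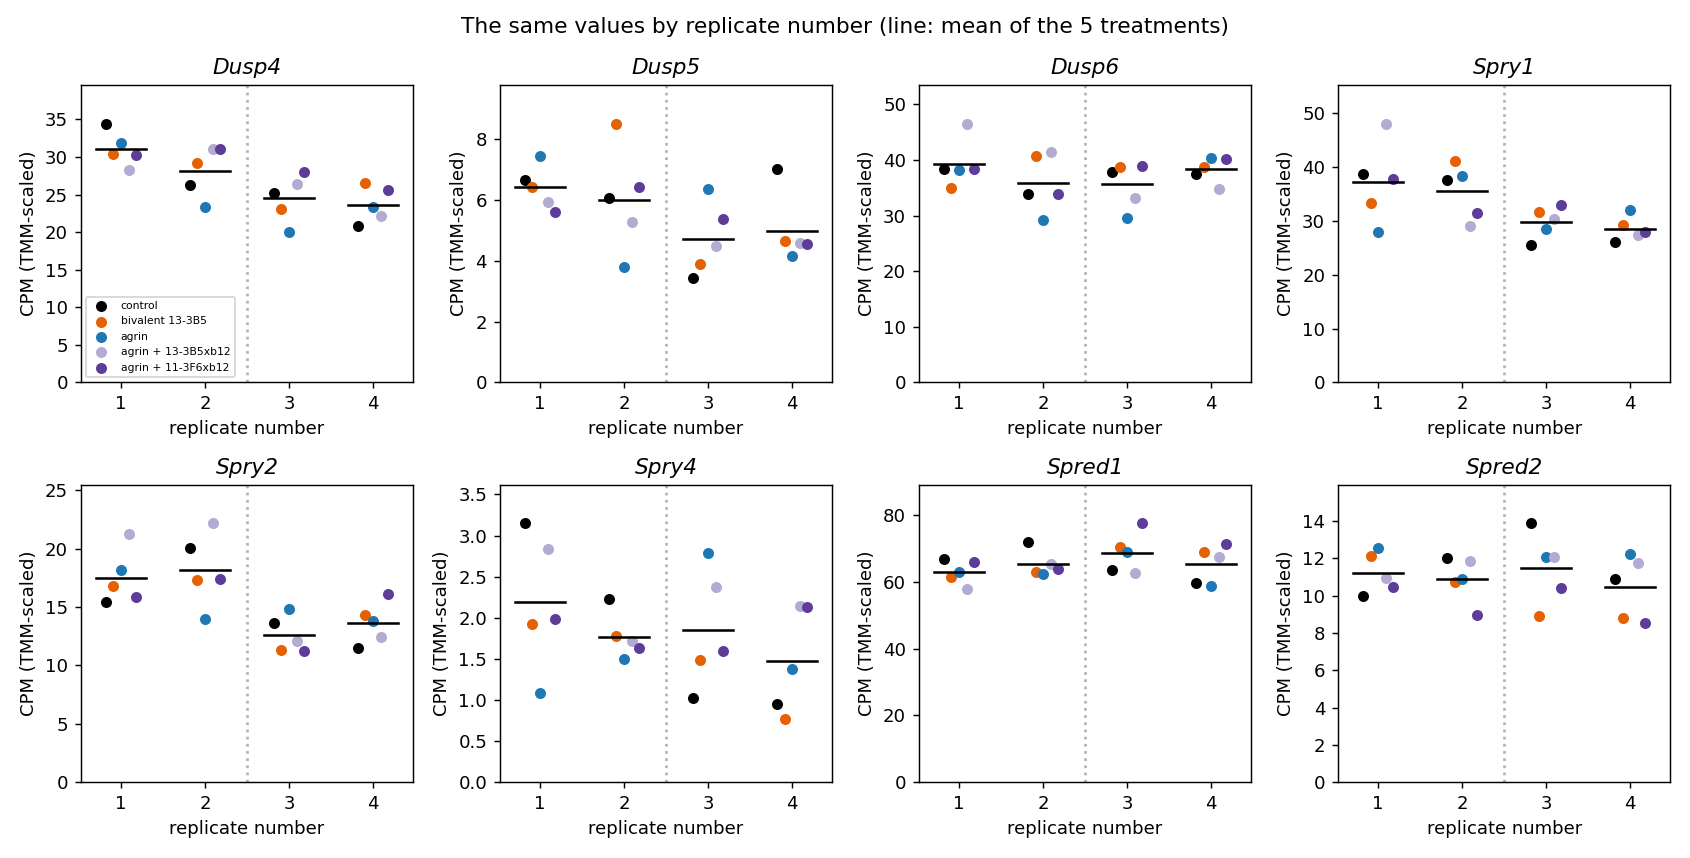
CPM of each gene by replicate number, 1 point per treatment and a line at the mean of 5 treatments. Mean Dusp4 is 31.05, 28.2, 24.6 and 23.7 CPM at numbers 1 to 4 and mean Spry2 is 17.5, 18.2, 12.6 and 13.7 CPM, while mean Dusp6 is 39.3, 35.8, 35.6 and 38.3 CPM.

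Counting each library as independent gives this comparison more precision than it has if same-numbered libraries share a culture. It would then be 2 numbers against 2, which can be split in 6 ways and cannot reach an exact two-sided p under 0.333. Other values differed between the same 2 sets of replicates. The mitochondrial ribosomal RNA mt-Rnr2 took 27.3% to 35.9% of counts in replicates 1 and 2 and 25.4% to 29.8% in replicates 3 and 4. Of 9 markers of dividing or undifferentiated myoblasts, all 9 were detected and 2 were called, both lower: the cyclin Ccnb1 at −0.65 (adjusted p = 0.00263) and the differentiation inhibitor Id3 at −0.48 (adjusted p = 0.00263, edgeR). Unadjusted, 6 of the 9 passed, and their median log2 fold change was −0.30, beside −0.29 for the 8 inhibitors. Their summed level was 229 to 314 CPM (median 261) in replicates 1 and 2 and 200.2 to 315 CPM (median 224) in replicates 3 and 4, with the highest sum in agrin replicate 3. Of the 10 myotube markers, creatine kinase Ckm (−0.72, adjusted p = 6.26e-09) and troponin Tnnt3 (−0.43, adjusted p = 7.45e-09) were lower and the fusion protein Mymx (0.38, adjusted p = 0.00157) was higher. Myotube markers summed to 12745 to 14713 CPM in replicates 1 and 2 and 10466 to 13649 CPM in replicates 3 and 4. The call of Ccnb1 was lost without replicate 2 or 4, and those of Id3 and Mymx without replicate 3. The part of these differences in the levels of Spry2, Dusp4 and Spry1 was not tested.

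A wider set of 76 genes of the same pathway, in 5 lists, gave 73 that were tested. No treatment comparison called any of them with edgeR, and 2 to 4 of the 73 had an unadjusted p under 0.05 in each. Between replicates 1 and 2 and replicates 3 and 4, 7 were called, or 9.59%, which is below the 13.1% of all genes, with 4 higher and 3 lower and a median log2 fold change of −0.01. Of the family relatives of the inhibitors, 0 of 8 tested were called and 1, Dusp9, had an unadjusted p under 0.05: the inducible phosphatase Dusp1 was at 0.09 and the ERK phosphatase Dusp9 at 0.54 (adjusted p = 0.142). Of 10 other negative regulators, 2 were higher, the ErbB receptor inhibitor Errfi1 at 0.28 (adjusted p = 0.000598) and the Ras GTPase activator Rasa1 at 0.18 (adjusted p = 0.00657), and 1 was lower, its relative Rasa2 at −0.26 (adjusted p = 0.0191). Neurofibromin itself, Nf1, which Spred proteins recruit, was at 0.07 (adjusted p = 0.663). These p-values are from edgeR with Benjamini-Hochberg adjustment over all genes.

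Upstream, 1 of 14 receptor tyrosine kinases was called, Erbb2 at −0.29 (adjusted p = 0.00288), while Musk was at 0.11 (adjusted p = 0.245). Of 25 adaptors, Ras proteins and kinases, only Nras was called, at 0.17 (adjusted p = 0.00241). Of 16 other genes that ERK induces, Junb was higher at 0.20 (adjusted p = 0.000240) and Egr2 lower at −0.52 (adjusted p = 0.0113). The ETS factors Etv4 and Etv5, common readouts of ERK output, were at −0.01 and −0.16 and were not called. The call of Rasa2 was lost without any 1 of the replicate numbers, that of Rasa1 without 2 or 3, that of Egr2 without 2 or 4 and that of Erbb2 without 3. All adjusted p-values are from edgeR.

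**Figure D5:**
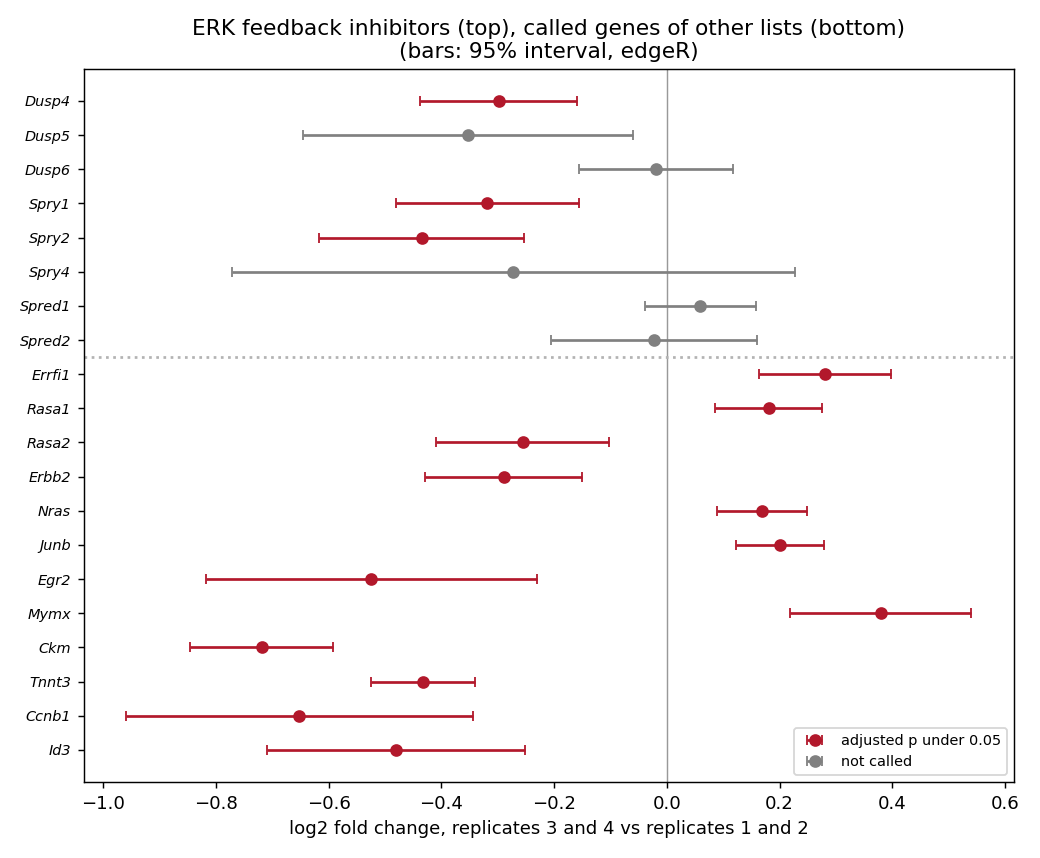
Log2 fold change of replicates 3 and 4 against replicates 1 and 2 with 95% intervals from edgeR, for the 8 inhibitors (top) and the called genes of the other lists (bottom), with called genes in red. Spry2, Dusp4 and Spry1 lie to the left of 0 and Dusp6, Spred1 and Spred2 near it, while Errfi1, Rasa1, Nras, Junb and Mymx lie to the right.

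Whether a treatment contrast of the inhibitors differed between the 2 sets of replicates was tested for each gene and comparison. Of 64 such tests, 8 had an unadjusted p under 0.05 and 0 an adjusted p under 0.05, the lowest being 0.575 (edgeR). Over all genes, the share with an unadjusted p under 0.05 was 6.95% for agrin, 4.95% for bivalent 13-3B5, 4.27% for 13-3B5xb12 and 4.77% for 11-3F6xb12 against control. Against agrin it was 8.24% for 13-3B5xb12, 2.96% for 11-3F6xb12 and 3.26% for bivalent 13-3B5, and it was 7.46% between the 2 monovalent antibodies. Of all genes, 2 (0.0137%) were called between the 2 monovalent antibodies and 0% in the other 7 comparisons. Spry4 had the smallest unadjusted p, in agrin against control. It was at 3.15, 2.23, 1.02 and 0.950 CPM in control replicates 1 to 4 and at 1.09, 1.502, 2.78 and 1.37 CPM with agrin. Agrin libraries were thus the lower ones in replicates 1 and 2 and the higher ones in replicates 3 and 4. The log2 fold changes were −1.05 (SE 0.50) and 1.07 (SE 0.51), a difference of 2.12 (SE 0.71, unadjusted p = 0.00573, adjusted p = 0.705, edgeR), on 18 to 66 counts a library.

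Within each set of replicates, no pair of inhibitors passed a test of correlation. All 28 pairs were correlated over the 10 libraries of each set, replicates 1 and 2 or 3 and 4, which makes 56 relations, on log2 CPM. The median Pearson r was 0.07 in replicates 1 and 2 and −0.03 in replicates 3 and 4, and 12 of 28 pairs had the same sign in both. After Benjamini-Hochberg adjustment 0 of 56 passed in a permutation test of 100000 resamples. By Pearson r the smallest p was that of Spry1 and Spry4 in replicates 1 and 2, at r = 0.70 (permutation p = 0.0252, adjusted p = 0.817). Spearman's rho of that pair was 0.61 (permutation p = 0.0675), and r was 0.52 without the 2 libraries farthest from the Spry1 median. No library was left out for its Spry4 value. By rho the smallest p was that of Spred1 and Spred2 in replicates 3 and 4, at −0.67 (permutation p = 0.0383).

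The genes closest to each inhibitor were sought among up to 11149. The measure was Pearson r of log2 CPM over 20 libraries after the mean of each replicate set was removed. The highest r among so many genes is high by selection, and no chance level was computed. These r are descriptions over libraries that share treatments and depth. Dusp4 was nearest to 1110004F10Rik (0.88) and Ppp2r5d (0.81), Spry2 to Grn (0.84) and Ppm1l (0.84), and Dusp6 to Fbxw8 (0.80) and Rbpms2 (0.76). Dusp5 was nearest to Nr2f1 (0.77) and Zfp605 (0.75), Spred1 to Cbll1 (0.77) and Mad2l1 (0.73), and Spry1 to Mb21d2 (0.75) and Dennd5a (0.74). Spry4 was nearest to Dcaf5 (0.74) and Vmn1r43 (0.72), and Spred2 to Rel (0.72) and Spaca6 (0.69). None of these 16 genes is one of the other inhibitors.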

How the data were processed

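Total RNA was read as paired ends on a NovaSeq instrument after ribosomal RNA removal with a stranded TruSeq kit, per the labels' protocols. The deposited table holds whole-number counts per gene and library, not normalized by the authors, identified by Ensembl ID and symbol. The submitters' processing notes name Trim Galore 0.6.6, cutadapt 2.10, STAR 2.7.6a, HTSeq 0.12.4, DESeq2 1.32.0 and GRCm38. Annotation release, strand setting and duplicate handling are not given in the sources used here. Of the gene IDs, 26667 matched GENCODE M21 and 55 did not.

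The counts were tested with edgeR 4.0.16 under R 4.3.3. filterByExpr (minimum count 10, minimum total 15) kept 14605 genes. One robust quasi-likelihood model with TMM scaling and treatment as its factor was fitted to all 20 libraries, leaving 15 residual degrees of freedom. The 8 treatment comparisons were two-sided, with Benjamini-Hochberg adjustment over genes at 0.05. The comparison of replicates 3 and 4 with 1 and 2 added a term for these 2 replicate sets, and a model with a term for each treatment and set tested their interaction. Log2 CPM for correlations used a prior count of 2. Correlations over genes and the search for the closest genes were limited to genes with a mean log2 CPM above 1. The 8 inhibitors were correlated without this limit, and Spry4, at a mean of 1.82 CPM, did not reach it. The script was tested on simulated data. Groups and replicate numbers come from sample titles and treatment labels. No libraries within a treatment agreed within sampling noise, with a chi-square per gene of at least 5.17 in 30 pairs.

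The 8 genes, the other lists and the tests were chosen with earlier results of these data known. All 8 genes were named, with log2 fold changes for all between the replicate sets, and in each treatment comparison those under an unadjusted p of 0.05 or, with none, the one with the smallest p. Spry4 against bivalent 13-3B5, genes of the lists that were not called, and Nf1 and Musk were added after their values were seen. From each pathway list, called genes were named, up to 3 in each direction. Marker lists covered myotubes, dividing myoblasts, liver, leukocytes and endothelium.

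Replicate numbers in the titles were checked for pairing. Deviations from the group means of same-numbered libraries of compared treatments correlated at 0.00824 to 0.384 over genes, above 0.1 in 26 of 32 pairs, and in every pair of 4 comparisons: bivalent 13-3B5 against control and against agrin, and both monovalent antibodies against agrin. Mean correlation was 0.195 for the same number, 0.201 for the other number of the same set and −0.198 across sets. Alternatives were the replicate block, a term for the replicate set, DESeq2 1.42.0 and its size factors, limma 3.58.1, other filters, separate fits for the groups compared, removal of genes over 1% of a library, and removal of libraries.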

Additional observations from a re-analysis of the deposited data

Results flagged for a closer look

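In agrin with 13-3B5xb12, replicate 1 was at 48.1 CPM for Spry1, while the other 3 replicates of that group lay between 27.3 and 30.3 CPM. The gap was larger than a Dixon test at 95% allows for 4 values. Of 40 groups checked (8 genes in 5 treatments) this was the 1 that passed, and chance gives about 2. The same library stands apart on the second principal component. Its part in the value was not tested.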

How the results depend on the processing

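No alternative called any of the 8 inhibitors in a treatment comparison or over any treatment, in 164 combinations of result and setting. Between replicates 1 and 2 and replicates 3 and 4, 2 to 4 were called in 12 settings. The fourth was Dusp5 with the replicate number as a random effect in limma (adjusted p = 0.0410). In that fit the correlation within replicate numbers was −0.054. Being negative, it added no allowance for libraries that share a number, so this call is no evidence beyond the main fit. Leaving out a replicate number gave 2 to 3 called inhibitors and 1045 to 1306 called genes, against 1908. In log2 fold change Dusp6 then ranged from −0.0886 to 0.0477 and Spred2 from −0.0892 to 0.0446, changing sign. Dusp6 was 0.0477 without replicate 1 and 0.0372 without replicate 3, and Spred2 was 0.0446 without replicate 4. Dusp6 was also 0.00058 without the 2 libraries that stand apart and 0.0063 without agrin replicate 3.

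Counts of called genes, 0 in the treatment comparisons, rose with no filter on low counts to 4 for agrin and 2 for bivalent 13-3B5 against control, 6 for 13-3B5xb12 and 13 for 11-3F6xb12 against agrin, 3 and 13 for the same against control, 7 for bivalent 13-3B5 against agrin, 27 between the monovalent antibodies and 50 over any treatment. With the replicate block they were 2 for 11-3F6xb12 against agrin, 3 against control, 5 between the monovalent antibodies and 2 over any treatment, and the pairing changed no other call. With a term for the replicate set the first 3 of these were 2, 3 and 10. The DESeq2 Wald test gave 2 between the monovalent antibodies. The cause was not tested. DESeq2 size factors moved the median of all genes by at most 0.0022 in log2. Depth limits Spry4 and Dusp5, with as few as 18 and 67 counts a library. The alternative of both libraries that stand apart left out, the same for pairs, and 2 settings of the treatment-by-set tests were chosen after seeing the data.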
